A study of Mus musculus with 4 samples.

Results

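Integrins and the membrane proteins that tetraspanins bind were followed in pancreatic islets of wild-type mice and of mice without Tspan7. The set was given as 31 gene symbols, and every symbol matched 1 row of the 52636 in the count table. It holds 12 alpha and 8 beta integrin subunits and 11 partner proteins. The members were listed by name and known function, but with earlier results of these data known, so no list test was run. Control islets carry the genotype WT, and knockout islets TSPAN7 KO, written Tspan7y/- for this X-linked gene. Each group has 2 libraries of total RNA from whole islets, so a lower level can reflect fewer cells of a type or less RNA per cell, which bulk counts cannot tell apart. The labels give no age, strain background or number of animals per library, and they name no promoter or cell type to which the deletion was limited. The text on the series says knockdown where the sample labels say knockout, and the sample labels were used.

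Tetraspanins are small proteins that cross the membrane repeatedly and gather other membrane proteins into patches. Integrins are adhesion receptors built from an alpha and a beta chain that tie the cytoskeleton to the extracellular matrix, and several of them sit in tetraspanin patches. In islets, endocrine cells meet the laminins and collagens of the vascular basement membrane through integrins that carry the beta1 chain. Other partners include the protease Adam10, which tetraspanins of the TspanC8 subgroup escort to the cell surface, and the immunoglobulin proteins Igsf8 and Ptgfrn, which bind CD9 and CD81. The type II phosphatidylinositol 4-kinases also travel with tetraspanins.

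Library totals lay between 7855665 and 9377220 counts. CPM values, which express a gene's counts as a share of its library, are scaled by edgeR's trimmed mean method (TMM). On that scale 3 counts, taken as the floor of detection, equal 0.312 to 0.398 CPM. Tspan7 gave 1924 and 1795 counts in control replicates 1 and 2 and 3 and 2 counts in the knockout replicates. Islet endocrine markers, among them Ins2, Gcg and Chga, were detected in full (11 of 11) and summed to between 30460 and 37000 CPM in each library. Log2 CPM correlated across genes at 0.966 to 0.984 between any 2 libraries, with control replicate 2 and knockout replicate 2 the least alike pair. Acinar markers ranged from 74.5 CPM in control replicate 2 to 6550 CPM in knockout replicate 2. Of the 10 tested, 10 stood above 0 with a median log2 fold change of 1.31, and the groups overlapped for all 10. No label says whether the libraries came from separate animals, so p-values measure the spread between these samples only, which may be technical.

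Of the 31 members, 27 passed the filter on low counts and were tested, and 0 were called in either direction at an adjusted p under 0.05 in edgeR's quasi-likelihood test. All 27 had an adjusted p of 0.9997. Across all 16924 tested genes 0.00591% were called lower, namely Tspan7 alone, and 0% higher. At an unadjusted p under 0.05, 3 members were lower (Cd44, Adam10 and Itgav) and 0 higher, where 1.96% of all genes were lower and 1.55% higher. DESeq2 called 0 members, with 1 at that unadjusted level (Cd44), and limma-voom called 0, with 3.

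The members leaned to the lower side by small amounts. Their median log2 fold change, knockout against control, was -0.22 against 0.003 for all tested genes, and 22 of 27 stood below 0 against 49.4% of all genes. The groups were apart with the knockouts lower for 11 of the 27, against 15% of all tested genes. They were apart with the knockouts higher for 0 of the 27, against 15.3% of all tested genes. The median was -0.13 without knockout replicate 2 and -0.14 without control replicate 1. In 19 of the 27 the difference between group means in CPM was smaller than the larger gap between libraries of 1 group, and on the log2 scale in 21. The lowest library was knockout replicate 2 for 14 members, and the highest was control replicate 2 for 11, which are also the libraries of most and least acinar RNA. Which library was lowest or highest was not counted over all tested genes, so this pattern cannot be called particular to the members. The part of acinar RNA in the members' values was not tested.

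**Figure D1:**
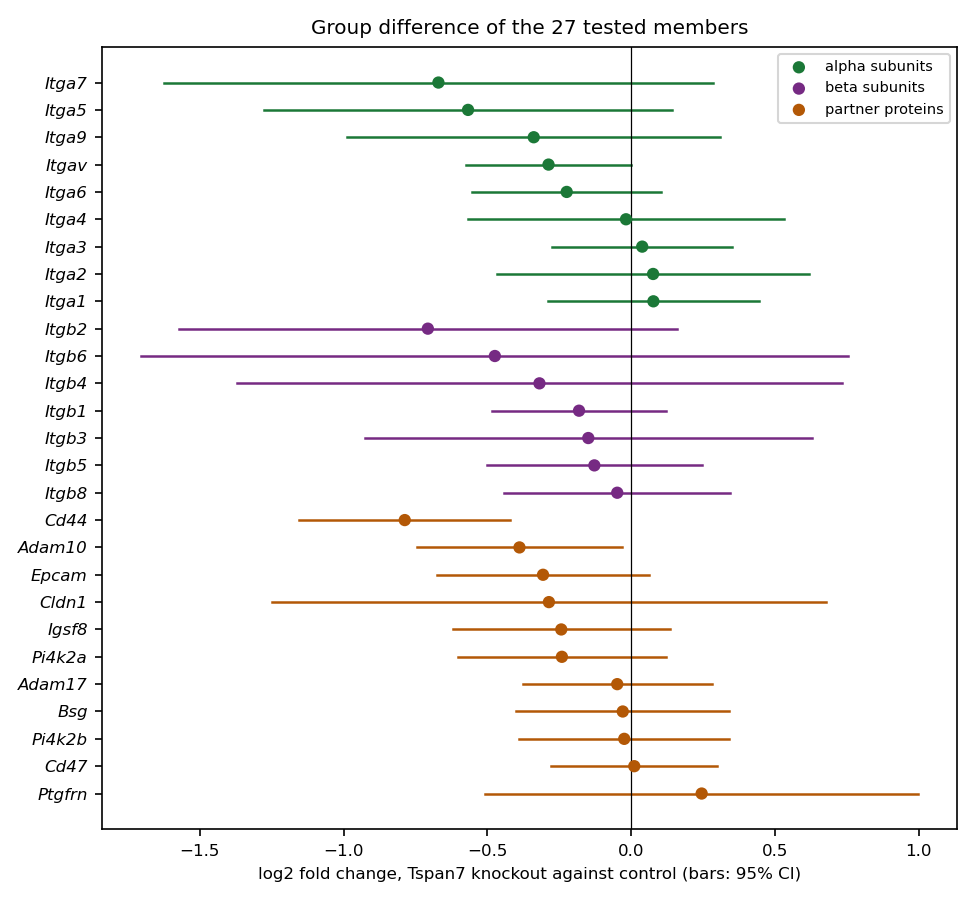
Log2 fold change of each tested member, Tspan7 knockout against control (horizontal axis), with points for the estimate and bars for the 95% confidence interval of the edgeR fit on 2 libraries per group. Of the 27 points 22 lie left of 0, and the intervals of Cd44, Adam10 and Itgav end below 0, at -0.42, -0.03 and -0.00057.

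The 250 bases before the annotated start of Cd44, Adam10 and Itgav are shown because these are the members with the smallest p. They come from RefSeq on build GRCm38.p6, are written 5′ to 3′ on the strand of the gene, and carry capitals where the GC box GGGCGG, or CCGCCC on the other strand, occurs. Of the 31 members 24 had an entry in that table.
Cd44, chr2:102901666-102901915, minus strand: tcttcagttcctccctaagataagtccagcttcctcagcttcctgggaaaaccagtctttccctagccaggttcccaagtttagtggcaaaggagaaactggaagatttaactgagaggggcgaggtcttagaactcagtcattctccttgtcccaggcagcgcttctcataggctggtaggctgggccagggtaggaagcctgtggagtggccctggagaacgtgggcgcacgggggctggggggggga
Adam10, chr9:70678732-70678981, plus strand: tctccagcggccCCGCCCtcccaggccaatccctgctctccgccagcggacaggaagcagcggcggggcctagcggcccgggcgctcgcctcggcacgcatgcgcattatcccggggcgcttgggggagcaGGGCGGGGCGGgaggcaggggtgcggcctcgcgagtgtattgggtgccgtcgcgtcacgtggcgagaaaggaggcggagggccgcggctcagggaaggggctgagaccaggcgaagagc
Itgav, chr2:83724147-83724396, plus strand: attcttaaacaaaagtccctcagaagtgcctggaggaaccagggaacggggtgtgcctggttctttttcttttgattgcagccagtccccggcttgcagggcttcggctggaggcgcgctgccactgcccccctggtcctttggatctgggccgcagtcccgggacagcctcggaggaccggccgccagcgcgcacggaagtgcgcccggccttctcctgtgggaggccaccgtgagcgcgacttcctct
Adam10 holds 3 GC boxes, of which a pair overlaps in a shared G, while Cd44 and Itgav hold 0 in this window. A GC box occurs in 32.7% of the 32851 RefSeq windows of this length and in 15 of the 24 matched members. The TATA box TATAAA, searched on both strands, is in 0 of the 3 windows and in 12.4% of all. G and C make up 56.4% of the Cd44 window, 74.0% of the Adam10 window and 64.4% of the Itgav window. These matches describe letters only, and no binding was measured.

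Among alpha subunits, Itgav had the highest level per kilobase and the smallest p, though not the largest difference. Itgav encodes the alpha chain that pairs with beta1, beta3, beta5, beta6 and beta8 to bind vitronectin, fibronectin and latent TGF-beta. It measured 654 and 644 CPM in control replicates 1 and 2 and 545 and 518 CPM in knockout replicates 1 and 2. The groups did not overlap, and the libraries of each group lay close together. The log2 fold change was -0.29 ± 0.12 (SE), with an unadjusted p of 0.0496 and an adjusted p of 0.9997 in edgeR's test. Leaving out any 1 library kept the value between -0.32 and -0.25, with unadjusted p from 0.112 to 0.196, and the unadjusted p was 0.076 with DESeq2 and 0.154 with the replicate block. The gene Gm13684 shares 634 exonic bases with Itgav on the opposite strand and gave 32 to 71 counts against 3909 to 6056 for Itgav. The strand setting of the counting is not given in the sources used here.

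Itga6 and Itga3, the laminin-binding alpha chains that pair with beta1 and that CD151 binds directly, differed little. Itga6 had 129.6 and 109.7 CPM in the controls and 105 and 99.8 CPM in the knockouts. Its groups did not overlap, although control replicate 2 came close to knockout replicate 1, and the log2 fold change was -0.22 (95% CI -0.55 to 0.10). It was -0.10 without control replicate 1, and -0.34 when replicate 2 was left out. For Itga3 the control libraries had 48.3 and 51.9 CPM and the knockout libraries 50.4 and 52.5 CPM. These values interleave, with a log2 fold change of 0.04 (95% CI -0.27 to 0.35).

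The fibronectin receptor chain Itga5 read 6.03 and 6.38 CPM in control against 5.09 and 3.18 CPM in the knockout islets. Both knockout values were lower, the second by more, and the log2 fold change of -0.57 ± 0.31 was -0.29 without knockout replicate 2, and -0.96 when replicate 1 was dropped instead. Itga7, a laminin receptor chain best known from muscle, gave 17 and 18 counts in the controls and 11 and 10 in the knockouts (-0.67, 95% CI -1.63 to 0.28). Itga9, a receptor chain for tenascin and osteopontin, measured 6.98 and 7.23 CPM against 4.57 and 6.76 CPM, again without overlap (-0.34, 95% CI -0.99 to 0.31), and its value was -0.07 without knockout replicate 1, against -0.64 when replicate 2 was dropped. The intervals of Itga7 and Itga9 include 0.

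The collagen-binding chains Itga1 and Itga2 and the chain Itga4, which binds fibronectin and Vcam1, overlapped between groups. Itga1 read 27.7 and 24.6 CPM in the controls and 26.5 and 28.6 CPM in the knockouts, and Itga2 13.7 and 13.1 CPM against 16.9 and 11.1 CPM. Their log2 fold change was 0.08 in both cases, with intervals of -0.29 to 0.44 for Itga1 and -0.47 to 0.62 for Itga2. Itga4 differed 1.56-fold between the control libraries, at 39.1 and 61.0 CPM in the controls and 56.2 and 42.6 CPM in the knockout islets. Its log2 fold change of -0.02 was 0.34 without control replicate 2 and -0.30 without control replicate 1. Exons of Itga4 share 1124 bases with Cerkl on the opposite strand, a gene of 507 to 673 counts, so part of the counts of either gene is uncertain.

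Beta chains all had a negative value among the 7 tested. Itgb1, the common partner of most alpha chains, measured 353 and 314 CPM in the controls and 295 and 293 CPM in the knockouts. The groups did not overlap, and the knockout libraries were nearly equal, but the log2 fold change of -0.18 had a 95% CI of -0.48 to 0.12 and was -0.10 without control replicate 1. Itgb5 (30.1 and 28.8 against 24.5 and 29.4 CPM) and Itgb8 (96.1 and 109 against 113 and 84.6 CPM), partners of the alpha-v chain, overlapped between groups. Their log2 fold changes were -0.13 and -0.05, and that of Itgb8 was 0.15 without knockout replicate 2.

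Itgb6, an epithelial partner of the alpha-v chain that activates latent TGF-beta, separated 1 library from the other 3. It gave 102 and 136 counts in control replicates 1 and 2, 137 in knockout replicate 1 and 34 in knockout replicate 2. In CPM the lone low library had 4.51 against 12.1 to 14.5 in the others. The log2 fold change of -0.47 (95% CI -1.70 to 0.76) became 0.10 without knockout replicate 2, or -1.55 when replicate 1 was dropped, so it rests on that library. The 10 ductal markers summed to 609.5 and 696 CPM in the controls and 532 and 539 CPM in knockout replicates 1 and 2. They did not move together, as 4 of the 8 tested stood above 0 and 4 below. Their log2 fold changes ran from -1.70 to 0.94 with a median of 0.02, and the groups overlapped for all 8. Spp1 (osteopontin) read 48.1 CPM in knockout replicate 2 against 44.7 and 171.5 CPM in the controls and 19.1 CPM in knockout replicate 1. Krt7 was lowest in knockout replicate 2, though by less than Itgb6, with 137 CPM against 147 to 177 CPM in the others. Krt19 gave 5 counts there against 6 to 17, and Sox9 12 counts against 11 to 14. The part of ductal cells in the Itgb6 value was not tested.

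Itgb4, the hemidesmosome chain that pairs with Itga6, gave 18 and 14 counts in the controls and 17 and 8 in the knockouts. Its log2 fold change of -0.32 was -0.03 without knockout replicate 2, and -0.75 when replicate 1 was left out. Itgb3, the partner of the alpha-v chain on platelets and endothelium, measured 4.50 and 8.40 CPM against 6.33 and 5.30 CPM. The knockout libraries thus lay between the control libraries, and the log2 fold change of -0.15 was 0.38 without control replicate 2 and -0.52 without control replicate 1.

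Compared per kilobase of exon, few subunits made up most integrin RNA. Itgav took 65.6% ± 0.152 (SD, n = 2) of the summed level of the 12 alpha subunits in control and 62.8% ± 0.329 in the knockouts. Itga6 followed with 14.4% in both groups and Itga3 with 9.53% and 11.4%. Of the 8 beta subunits Itgb1 took 78.6% ± 2.50 in control and 78.5% ± 1.88 in the knockouts, ahead of Itgb8 (8.95% and 9.72%) and Itgb5 (7.98% and 8.29%). The chains at the top are thus those that can form alpha-v beta1, alpha-v beta5, alpha-v beta8, alpha6 beta1 and alpha3 beta1 receptors. Which of them form was not measured.

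The summed alpha level per kilobase was 92.7 and 91.4 CPM in the controls and 81.1 and 76.5 CPM in the knockouts. For beta subunits the sums were 108 and 100.2 CPM against 93.7 and 89.9 CPM. Neither sum overlapped between groups, and Itgav and Itgb1 accounted for most of the gap. With 2 against 2 libraries an exact permutation test cannot give a two-sided p below 0.333, so no p is given. Exon lengths come from GENCODE M21 on GRCm38, an older build than that of the counts, which makes levels per kilobase approximate.

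**Figure D2:**
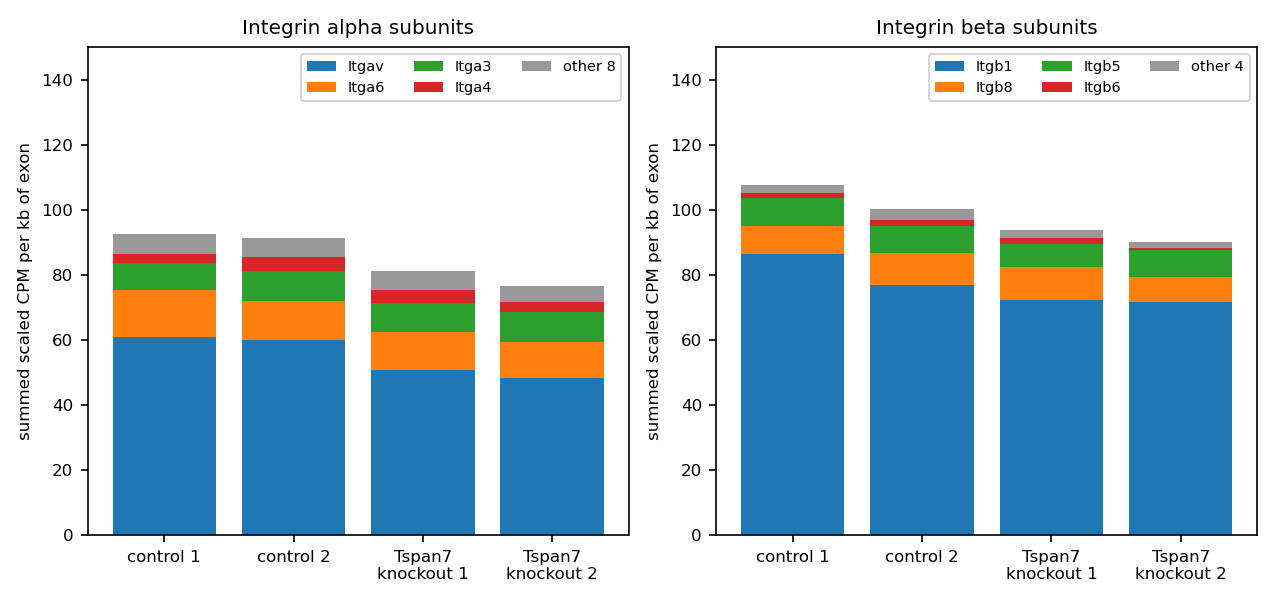
Stacked bars of scaled CPM per kilobase of exon (vertical axis, from 0) for alpha subunits (left) and beta subunits (right) in each of the 4 libraries, with the 4 most abundant chains coloured and the rest in grey. Itgav and Itgb1 fill most of each bar, and both knockout bars are shorter than both control bars, from 92.7 and 91.4 to 81.1 and 76.5 for alpha chains.

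The leukocyte chains Itgb2, Itgal, Itgam and Itgb7 were scarce. Itgb2, the common beta chain of leukocytes, gave 27 and 37 counts in the controls and 26 and 12 in the knockouts, or 3.19 and 3.93 CPM against 2.70 and 1.59 CPM. Its groups did not overlap (log2 fold change -0.71 ± 0.38), and the value was -1.16 without knockout replicate 1 but -0.40 when replicate 2 was dropped. Itgal, Itgam and Itgb7 did not pass the filter. Itgal gave 8 and 8 counts in the controls and 10 and 3 in the knockouts. Itgam gave 3 and 5 against 5 and 3, and Itgb7 3 and 8 against 2 and 1. Exons of Itgam share 3450 of 5024 bases with Gm49368 on the same strand, a gene of 2 to 5 counts, so both levels are uncertain. For Itgb7 the summed counts put the knockout at 28.4% of control, and the exact binomial 95% interval ran from 5.08% to 107%. Itga8, a chain of smooth muscle and mesenchyme, also missed the filter with 9 and 5 counts against 6 and 4. These 4 genes were not tested, and counts this low can neither show nor exclude a difference in them.

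Macrophage and myeloid markers were also lower in sum in the knockouts. All 15 markers were detected, and they summed to 129 and 105 CPM in the controls and 89.8 and 79.0 CPM in the knockouts. Of the 14 tested, 14 stood below 0 with a median of -0.43, 0 were called and 5 had an unadjusted p under 0.05. Among all tested genes the shares were 49.4% below 0 and 1.96% lower at that unadjusted level. The pan-leukocyte gene Ptprc measured 11.2 and 9.46 CPM against 5.71 and 5.04 CPM, while the macrophage receptor Csf1r overlapped between groups (18.9 and 14.1 against 18.7 and 11.9 CPM). Lymphocyte markers summed to 2.12 to 3.19 CPM in every library. The part of myeloid cells in the values of Itgb2 and of Cd44, which leukocytes also express, was not tested.

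Among partner proteins the clearest difference was in Cd44, the receptor for hyaluronan, which associates with tetraspanins and integrins. Cd44 gave 983 and 1395 counts in control replicates 1 and 2 and 771 and 552 in knockout replicates 1 and 2, or 116 and 148 CPM against 80.1 and 73.2 CPM. Both knockout libraries lay well below both controls, and control replicate 2 was the highest. The log2 fold change was -0.79 ± 0.16 (95% CI -1.15 to -0.42), a knockout level of 57.9% of control. Its unadjusted p was 0.00106 and its adjusted p 0.9997 in edgeR's test, and DESeq2 gave an adjusted p of 0.376. The value was -0.60 without control replicate 2 and -0.95 without control replicate 1. With no filter on low counts Cd44 was called (adjusted p = 0.00304), in a fit that called 15 genes higher and 47 lower in all.

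Adam10, the sheddase that cleaves Notch and many adhesion proteins, measured 103 and 129.8 CPM in the controls and 90.7 and 86.8 CPM in the knockout islets. The groups did not overlap, but control replicate 1 stood nearer to the knockout libraries than to the other control. The log2 fold change was -0.39 ± 0.15 (SE), with an unadjusted p of 0.0357 in edgeR's test. Without control replicate 2 it was -0.21, and the unadjusted p was 0.253. The related sheddase Adam17 read 35.7 and 33.4 CPM against 33.1 and 33.7 CPM and overlapped (log2 fold change -0.05, 95% CI -0.38 to 0.28). Per kilobase, Adam10 exceeded Adam17 by 4.18 and 5.66 times in control and 3.99 and 3.76 times in the knockouts. Whether the proteases differ from each other in their response was not tested. Exons of Adam17 share 311 bases with Iah1 on the opposite strand.

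Igsf8 (also called EWI-2) was 22.2 and 23.5 CPM in the controls and 20.0 and 18.6 CPM in the knockouts. The groups did not overlap, yet the log2 fold change of -0.24 had a 95% CI of -0.62 to 0.13. Its relative Ptgfrn was scarce, at 32 and 31 counts in the controls and 48 and 25 in the knockouts. The log2 fold change of Ptgfrn, the highest of the tested members, was 0.24 (95% CI -0.51 to 0.998) and turned to -0.09 without knockout replicate 1.

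Epcam, the epithelial adhesion protein that associates with claudins and tetraspanins, measured 207 and 219 CPM in the controls and 194 and 149.5 CPM in the knockouts. Knockout replicate 2 supplied most of the gap, and the log2 fold change of -0.31 (95% CI -0.67 to 0.06) was -0.13 without that library and -0.51 without knockout replicate 1. Ductal epithelial markers summed to 609.5 and 696 CPM in the controls and 532 and 539 CPM in the knockouts, and endocrine markers overlapped between groups. The ductal markers did not move as one, with 4 of 8 tested above 0, a median of 0.02 and overlap between groups for all 8. Their lowest value, -1.70, was that of osteopontin (Spp1), at 44.7 and 171.5 CPM in the controls and 19.1 and 48.1 CPM in the knockouts. The part of ductal cells in the Epcam value was not tested. The tight junction protein Cldn1 gave 29 and 18 counts in the controls and 18 and 19 in the knockouts, with a log2 fold change that ran from -0.66 to 0.18 with 1 library left out.

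Cd47, the binding partner of thrombospondin and of the alpha-v beta3 integrin, had the value nearest to 0 of the tested members. It read 286 and 283 CPM in the controls and 290.1 and 283 CPM in the knockouts, with a log2 fold change of 0.01 (95% CI -0.28 to 0.30). Bsg, also named basigin or CD147, a chaperone of lactate transporters, had the highest level per kilobase of all 31 members in both groups. In CPM it measured 206 and 179.5 against 167 and 211, and its log2 fold change of -0.03 had a 95% CI of -0.40 to 0.34.

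Pi4k2a and Pi4k2b make phosphatidylinositol 4-phosphate on endosomes and Golgi membranes. Pi4k2a stood at 141 and 159.6 CPM in the controls and 142 and 113 CPM in the knockout islets, where knockout replicate 1 overlapped the controls. Its log2 fold change of -0.24 (95% CI -0.60 to 0.12) was -0.09 without knockout replicate 2, and -0.41 when replicate 1 was left out. Pi4k2b had 34.6 and 29.9 CPM against 29.7 and 33.7 CPM, a log2 fold change of -0.02 (95% CI -0.39 to 0.34). Pi4k2a exceeded Pi4k2b per kilobase in all 4 libraries, by 1.89 times or more.

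**Figure D3:**
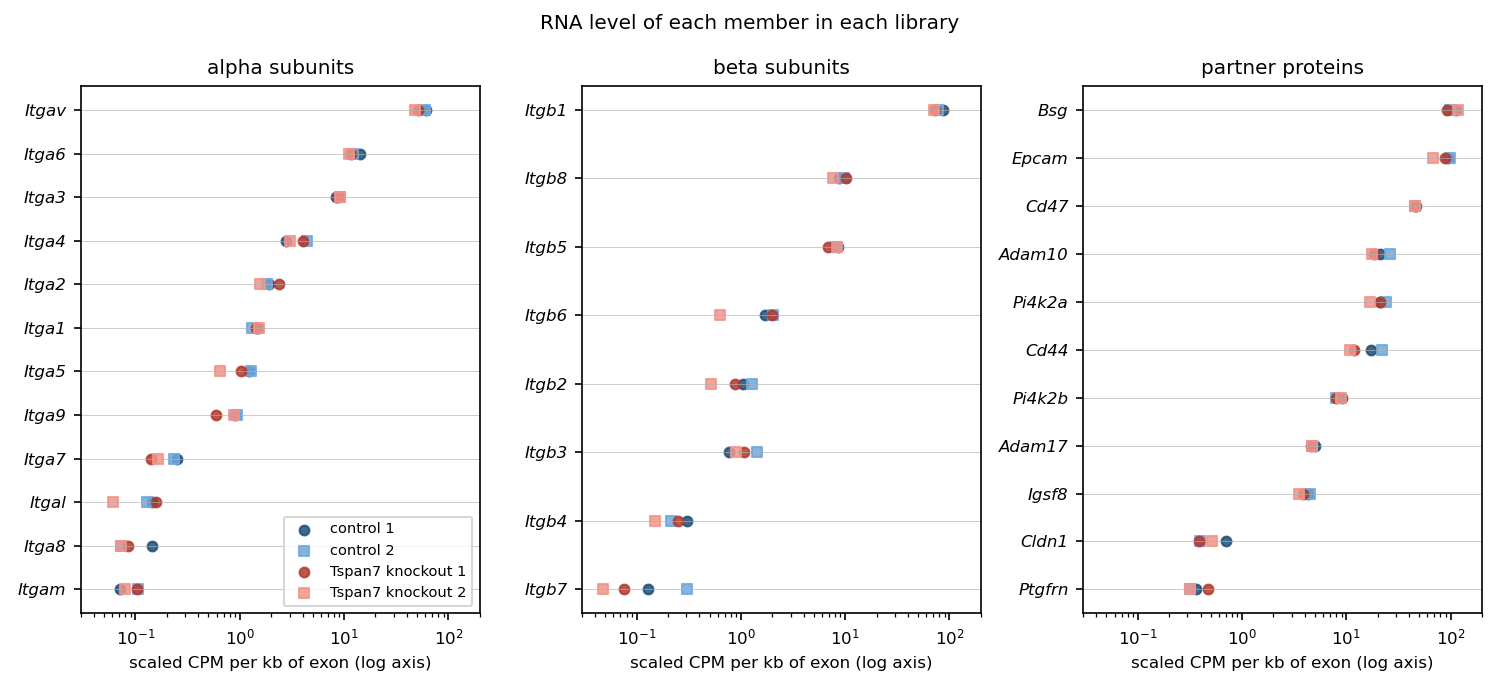
Scaled CPM per kilobase of exon (horizontal log axis) of all 31 members in each of the 4 libraries, with circles for replicate 1, squares for replicate 2, blue for control and red for Tspan7 knockout. Levels span from below 0.1 for the leukocyte chain Itgam to about the level of Bsg (106 in control), while libraries of both groups mostly lie on top of each other.

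Genes that work with the members were read from lists chosen by function. Of 32 genes of the integrin adhesion machinery 30 were tested, 0 were called, and 18 stood below 0 with a median of -0.11, which ran from -0.20 without control replicate 1 to -0.02 without knockout replicate 2. At an unadjusted p under 0.05 there were 0 in either direction. Tln1, the talin that activates integrins by binding beta tails, measured 201 ± 17.6 CPM in the controls and 169 ± 9.11 CPM in the knockouts (SD, n = 2), without overlap. Fermt3, the kindlin of blood cells, gave 16 and 15 counts against 8 and 9 (log2 fold change -0.79 ± 0.46). Tns1, a tensin that links integrins to actin, had a log2 fold change of -0.39, and Crk, an adaptor of focal adhesions, of -0.24.

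Integrin ligands lay lower than the adhesion machinery in their median, a difference that was not tested. Of 28 matrix and basement membrane genes 23 were tested, and 0 were called. In all, 19 stood below 0, with a median of -0.31, and 4 had an unadjusted p under 0.05, each of them lower. Over all tested genes 49.4% stood below 0, and 1.96% were lower at that unadjusted level. Thrombospondin 1 (Thbs1), a ligand of Cd47 and of beta1 integrins, measured 142 and 242 CPM in the controls and 123 and 117 CPM in the knockouts. Col4a2, a collagen IV chain of basement membranes, had a log2 fold change of -0.39 ± 0.15, the endothelial laminin chain Lama4 of -0.58 ± 0.24 and the laminin chain Lama5 of -0.55 ± 0.23. The list's median was -0.17 without control replicate 2 and -0.43 without control replicate 1.

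Endothelial and mesenchymal cells make much of this matrix, and their markers were read beside it. Col1a1 and Col1a2 are in both the matrix list and the stellate and pericyte list, so those lists are not independent. The 12 endothelial markers were all detected and summed to 569.6 and 586 CPM in the controls and 489 and 566 CPM in the knockouts. Of the 11 tested, 9 stood below 0 (median -0.25). The groups were apart with the knockouts lower for 8 of them, against 15% of all tested genes. The 11 stellate and pericyte markers summed to 214 and 245 CPM against 164 and 211 CPM, with 6 of 9 tested below 0 (median -0.29). Of those 9, the knockouts were lower without overlap for 4 and higher without overlap for 2. The shares of all tested genes were 15% and 15.3%. The part of these cells in the values of the ligands and of the integrins was not tested.

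Of 8 cell surface ligands 7 were tested, all 7 stood below 0, and the list's median was -0.15. That median moved to -0.29 when control replicate 1 was left out, to -0.09 when replicate 2 was, and to -0.06 with a minimum count of 30. Vcam1, the ligand of integrins with the alpha4 chain on activated endothelium and macrophages, gave 20 and 28 counts in the controls and 6 and 3 in the knockouts. From the summed counts the knockout level was 19.5% of control (exact binomial 95% interval 8.41% to 40.2%). Its unadjusted p in edgeR's test was 0.00125, and its adjusted p 0.9997. Cdh1, the E-cadherin that the alpha-E beta7 integrin binds, measured 565 ± 12.8 CPM in the controls and 505 ± 28 CPM in the knockouts (SD, n = 2).

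The remaining tetraspanins showed no called gene among 23 tested of 30, with 15 below 0 and a median of -0.15. That median was -0.01 without control replicate 2. Cd53, a tetraspanin of leukocytes, had the smallest p of the list, with 29 and 34 counts in the controls and 12 and 12 in the knockouts. Its groups did not overlap, and the log2 fold change was -1.32 (95% CI -2.16 to -0.48, unadjusted p = 0.00661 and adjusted p = 0.9997 in edgeR's test). The part of myeloid cells, whose markers were also lower in sum, was not tested. Cd151, the tetraspanin that holds laminin-binding integrins, measured 22.6 and 23.3 CPM in the controls and 17.7 and 19.6 CPM in the knockouts. Those groups did not overlap, and the log2 fold change was -0.30 ± 0.17. Cd81, a direct partner of Igsf8, overlapped between groups (64.2 and 87.2 against 63.2 and 91.7 CPM), and Cd9 gave 60 and 84 counts in the controls and 88 and 28 in the knockouts.

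Regulators of Adam10 and Adam17 had a median of -0.03 over 12 tested genes of 14, with 7 below 0 and 0 called. Their median moved to -0.14 when control replicate 1 was dropped and to 0.05 when replicate 2 was. The TspanC8 tetraspanins that were tested, which carry Adam10 to the surface, had log2 fold changes from -0.31 for Tspan17 to 0.17 for Tspan33. Timp3, an inhibitor of both proteases, stood at -0.28. All 10 phosphatidylinositol kinases were tested and stood below 0 with a median of -0.14, including the member kinases, and 0 were called. That median was -0.22 without knockout replicate 1. Pip4k2a, a kinase of phosphatidylinositol 5-phosphate, had the smallest p of that list at -0.31 (unadjusted p = 0.0667 in edgeR's test).

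DESeq2 and limma-voom also called 0 genes in these 7 lists. At an unadjusted p under 0.05 they gave 1 and 4 matrix genes, 1 and 1 cell surface ligands, 1 and 1 tetraspanins and 0 genes of the other 4 lists, which include the integrin subunits outside the members.

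**Figure D4:**
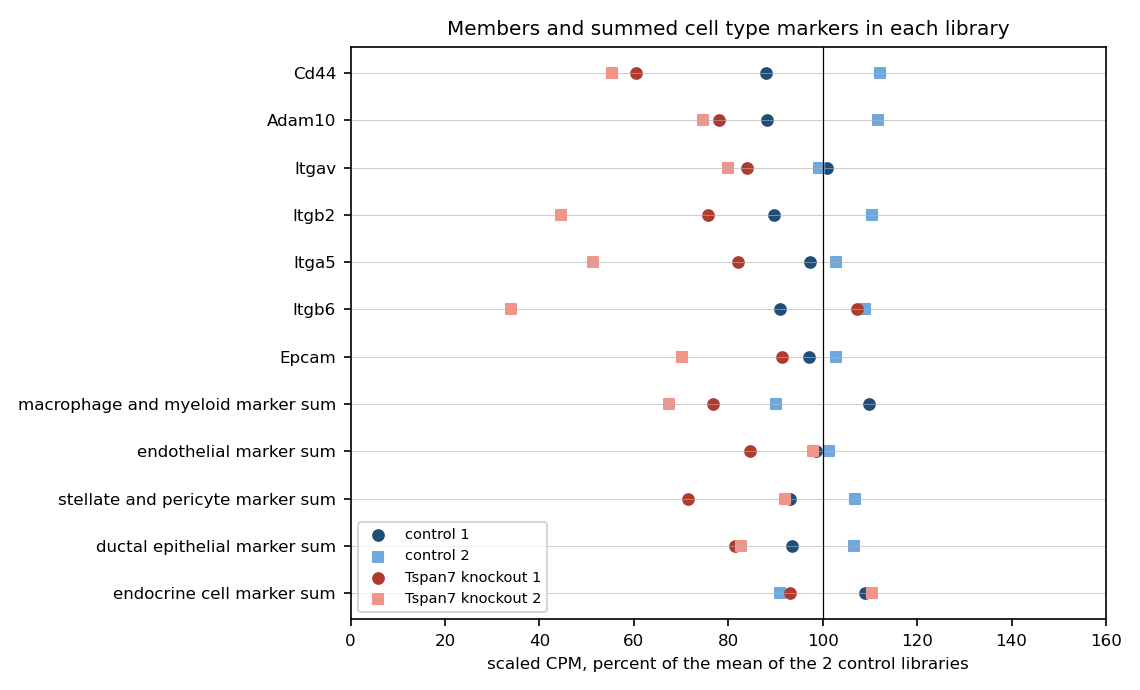
Scaled CPM of 7 members and of 5 summed marker lists in each library, as a percentage of the mean of the 2 control libraries (horizontal axis). Cd44 stands at 60.5% and 55.3% in the knockout libraries and the macrophage sum at 76.8% and 67.6%, while Itgb6 is low in knockout replicate 2 only (34.0%).

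Leaving out libraries showed which members depend on 1 sample. Over 11 alternatives in processing 14 of the 27 tested members kept their direction in all that could be fitted, and 13 reversed in at least 1. Cd44, Itgb2, Itga7 and Itga5, the 4 members with the largest differences, did not reverse, while Itgb6, next in size, did. Itgb6, Itgb2, Itga5, Cd44 and Epcam had log2 fold changes of -1.55, -1.16, -0.96, -0.85 and -0.51 without knockout replicate 1. With knockout replicate 2 left out instead, these were 0.10, -0.40, -0.29, -0.72 and -0.13. Only Cd44 was lower at an unadjusted p under 0.05 with DESeq2.

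**Figure D5:**
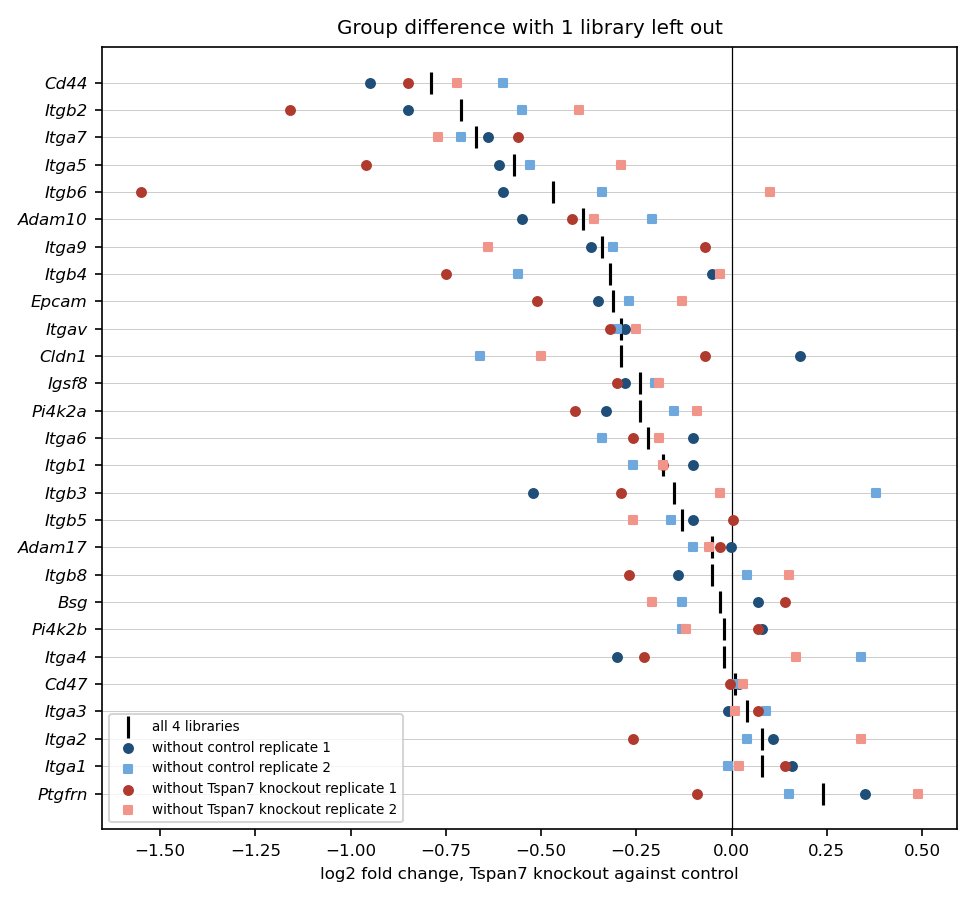
Log2 fold change of each tested member (horizontal axis) in all 4 libraries (black bar) and with 1 library left out (coloured points). Cd44 runs from -0.95 to -0.60 and Itgav from -0.32 to -0.25, while Itgb6 runs from -1.55 to 0.10.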

How the data were processed

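RNA-seq was deposited for 2 control and 2 Tspan7 knockout islet libraries. The deposited table holds the authors' raw counts per Ensembl gene. HISAT2, featureCounts and GRCm39 are named, without versions, in the submitters' processing notes. The annotation release, strand setting and treatment of multi-mapping reads were not given in the sources used here. Names were taken from a separate list of gene names, which matched 52403 of 52636 identifiers. GENCODE M21 gave an exon length for 52489. Samples were grouped by their titles.

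Counts were fitted in edgeR 4.0.16 under R 4.3.3: filterByExpr with a minimum count of 10, TMM scaling, robust quasi-likelihood F test, two-sided, no covariate, Benjamini-Hochberg adjustment over 16924 genes, called under 0.05. Fold changes carry standard errors and 95% intervals from that fit. The fit was tested on simulated data. Alternatives used limma 3.58.1, DESeq2 1.42.0, RLE and upper-quartile scaling, no filter, a minimum count of 30, the replicate number as a block, and each library left out.

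The members and lists were chosen with earlier results of these data known, so no list test was run. The rule for named genes covered all members and, per other list, genes from among the 4 of smallest p. Cd81, Cd9, Csf1r, Krt7, Sox9, Cdh1, Tspan33 and the other marker genes beside the members were added for their role. Per-kilobase levels divide scaled CPM by merged exon length. Counting intervals cover counting error only.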

Additional observations from a re-analysis of the deposited data

How the results depend on the processing

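No member was called under any alternative except Cd44 (-0.77, the 1 member called) when genes of low count were kept. Across all genes that setting called 15 higher and 47 lower, DESeq2 4 lower, and without control replicate 1 the calls were 33 higher and 15 lower. With 1 library left out the calls over all genes ran from 0 to 33 higher and from 1 to 15 lower. The cause was not tested. The members' median was -0.15 with a minimum count of 30, where fewer members were tested, and ran from -0.26 to -0.13 with 1 library left out. Members lower at an unadjusted p under 0.05 numbered 1 with DESeq2 and 1 with the replicate block.

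The labels' replicate numbers were tried as a block. Deviations of libraries with the same number from their group means correlated at -0.300 over 16924 genes, so the numbers were not taken to pair samples. The replicate block called 1 gene higher and 5 lower, and the crossed pairing, added after seeing the data, 1 and 1.

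Single directions reversed as follows. Itga4 stood at 0.0047 with limma-voom and 0.0026 with the replicate block. With 1 library left out the ranges were -0.21 to 0.14 for Bsg, -0.0036 to 0.03 for Cd47, -0.66 to 0.18 for Cldn1, -0.01 to 0.16 for Itga1, -0.26 to 0.34 for Itga2, -0.01 to 0.09 for Itga3, -0.30 to 0.34 for Itga4, -0.52 to 0.38 for Itgb3, -0.26 to 0.0034 for Itgb5, -1.55 to 0.10 for Itgb6, -0.27 to 0.15 for Itgb8, -0.13 to 0.08 for Pi4k2b and -0.09 to 0.49 for Ptgfrn. Counts of 48 or fewer per library, as for Itgb2, Itgb4, Itga7, Cldn1 and Ptgfrn, limit precision.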

Other observations

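Of the integrin genes outside the 31 members, Itgad, which encodes the alpha-D chain of leukocytes, gave 165 and 118 counts in the controls and 164 and 172 in the knockouts. Per kilobase of exon this was 4.33 and 2.78 CPM in the controls and 3.78 and 5.05 CPM in the knockouts, above the range of 0.800 to 0.985 CPM of its relative Itgax. Exons of Itgad overlap those of Cox6a2 (172 to 229 counts) and 4931431B13Rik (61 to 89 counts) on the opposite strand, so the source of these counts is uncertain. The collagen receptor chain Itga11 was the only one of these genes with both knockout libraries above both controls, at 8 and 8 counts against 20 and 11 (log2 fold change 0.99, 95% CI -0.09 to 2.06).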
